A study of Mus musculus with 13 samples.

Results

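Fc receptors bind the constant part of antibodies and tell a phagocyte that a target has been coated with IgG, and the phagocyte NADPH oxidase is the enzyme with which the same cells make superoxide. The 9 genes described here are the Fc gamma receptors Fcgr1, Fcgr2b, Fcgr3 and Fcgr4, the signalling chain Fcer1g, and the oxidase subunits Cybb, Cyba, Ncf1 and Ncf4, out of 45775 genes in the deposited table. They were chosen by name as known parts of these complexes, and all 9 passed the count filter in every comparison. The choice was made with earlier results of these data known, so the counts of genes called below are descriptive. RNA-Seq had been performed on hippocampi of 13 mice, 3 days after saline (sham) or pilocarpine-induced status epilepticus (SE). The groups were 3 SE-cKO, 3 SE-WT, 4 sham-cKO and 3 sham-WT mice. All carried Nestin-Cre, which is active in neural progenitors and their descendants, cKO mice had loxP sites on both copies of Lin28a and WT mice had intact Lin28a. Microglia do not descend from neural progenitors, so the deletion is not directed at the cells best known for these 9 genes. Mice were 6 weeks old at treatment, and pilocarpine was given at 260 mg/kg to males and 280 mg/kg to females. Scopolamine methyl nitrate and terbutaline were given before pilocarpine. Animals that entered SE also received diazepam and dextrose, and only mice showing SE were kept. Libraries were not labelled by sex.

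In the brain, Fc receptors and the oxidase are best known in microglia, the resident macrophages, and in phagocytes that enter from the blood. Fcgr1, Fcgr3 and Fcgr4 encode activating receptors, which signal through an ITAM, a tyrosine motif in the cytoplasmic tail of their partner chain encoded by Fcer1g. Fcgr2b encodes the inhibitory receptor, whose own tail carries an ITIM that recruits phosphatases. Cybb encodes NOX2, the catalytic membrane subunit of the oxidase, and Cyba encodes the membrane partner that stabilises it. Ncf1 encodes the organiser that brings the cytosolic subunits to the membrane, and Ncf4 encodes a cytosolic subunit that binds a lipid of the phagosome membrane.

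Of the 9 genes, 4 lie together on chromosome 1 of GRCm38, within 273.8 kb that hold 9 protein-coding genes. They are Fcgr2b (chr1:170960558-170976071), Fcgr4 (chr1:171018926-171029761), Fcgr3 (chr1:171051169-171065915) and Fcer1g (chr1:171229572-171234349). Fcgr1 is at chr3:96282909-96293969, Ncf1 at chr5:134220053-134229628, Cyba at chr8:122424771-122432940, Ncf4 at chr15:78244164-78262582 and Cybb at chrX:9435252-9487766. Annotated transcripts of Fcgr2b and Fcgr3 shared 166 stretches of 50 bases, 4.48% of those of Fcgr2b and 10.2% of those of Fcgr3, so reads from these stretches could have been assigned to either gene. No such stretch was shared with Fcgr1 or Fcgr4. Ncf1 overlaps Gtf2ird2 on the other strand, and the strand setting of the authors' counting is not given in the sources used here. Gtf2ird2 averaged 9.32 CPM (read counts scaled by library size) in SE-cKO against 12.3 CPM in sham-cKO, and 10.7 CPM in SE-WT against 12.2 CPM in sham-WT. Cyba and Fcgr2b also overlap annotated genes on the other strand, Gm20388 and Gm38204.

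To show what stands upstream of the genes that changed most or carry a searched motif, 120 bases before the RefSeq start of 5 genes are given 5′ to 3′ on the gene's strand (RefSeq, GRCm38.p6). They cover chr3:96293970-96294089 for Fcgr1, chr1:171059395-171059514 for Fcgr3 (the more downstream of its listed starts), chr1:171018806-171018925 for Fcgr4, chr5:134229626-134229745 for Ncf1 and chrX:9469325-9469444 for Cybb. The RefSeq starts of Fcgr3 and Cybb lie 6.52 kb and 18.4 kb inside the gene spans given above, which reach further upstream, so these 2 windows fall within the spans, and that of Ncf1 overlaps its span by 3 bases. Capitals mark matches, on either strand, to the PU.1 core GAGGAA (read as TTCCTC on the other strand), to the interferon gamma-activated site TTCNNNGAA and to the IRF pair GAAANNGAA.
Fcgr1: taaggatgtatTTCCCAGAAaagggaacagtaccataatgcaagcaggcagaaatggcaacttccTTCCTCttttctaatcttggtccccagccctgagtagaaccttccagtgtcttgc
Fcgr3: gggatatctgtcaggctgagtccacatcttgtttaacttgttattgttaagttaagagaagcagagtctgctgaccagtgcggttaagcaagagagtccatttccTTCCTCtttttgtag
Fcgr4: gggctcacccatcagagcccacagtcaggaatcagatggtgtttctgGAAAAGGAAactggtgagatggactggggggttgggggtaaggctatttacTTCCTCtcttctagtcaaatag
Ncf1: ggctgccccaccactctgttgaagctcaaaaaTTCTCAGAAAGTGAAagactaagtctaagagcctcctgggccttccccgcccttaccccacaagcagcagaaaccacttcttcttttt
Cybb: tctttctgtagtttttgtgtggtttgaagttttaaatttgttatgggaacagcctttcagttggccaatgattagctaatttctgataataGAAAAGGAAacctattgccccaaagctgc
PU.1 is the transcription factor of the myeloid lineage, the interferon gamma-activated site binds STAT factors, and IRF pairs bind interferon regulatory factors. The PU.1 core stood 55 bases before the start of Fcgr1, 15 before that of Fcgr3 and 22 before that of Fcgr4. Over the 250 bases before the start, 3 of the 8 genes matched in the promoter table held the PU.1 core, against 23.3% of all 32851 promoters. The interferon gamma-activated site was in 2 of the 8 (Fcgr1 and Ncf1), against 7.02% of all promoters, and the IRF pair in 3 of the 8 (Fcgr4, Ncf1 and Cybb), against 7.13%. In Ncf1 the last 2 motifs overlap and are capitalised as 1 run. A C/EBP motif, TTGCNNAA, was found in Fcgr3 alone among the 8, against 9.56% of all promoters, and is not capitalised. A gene was counted if any of its listed starts held the motif, and Fcgr3 had more than 1 start. The share over all promoters counts each start by itself, so the 2 units differ. These matches describe the letters and are not evidence of binding.

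Read counts of all 9 genes rose after SE in both genotypes. In SE-cKO against sham-cKO, 9 of 9 were called higher by edgeR at an adjusted p under 0.05, against 13.8% of the 21307 genes tested, and in SE-WT against sham-WT 9 of 9 were called higher, against 4.57% of 20803. The median log2 fold change of the 9 genes was 3.73 in cKO, from 2.88 for Cyba to 6.36 for Fcgr4, beside a median near 0 over all genes tested (-0.0006). In WT it was 2.86, from 1.96 for Cyba to 6.56 for Fcgr4, beside 0.0152 over all genes. Every SE library lay above every sham library of its genotype for each of the 9 genes, which held for 19.8% of all tested genes in cKO and 16.8% in WT. Because RNA came from whole hippocampi, more cells of a type and more RNA per cell cannot be told apart in any of these values.

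**Figure D1:**
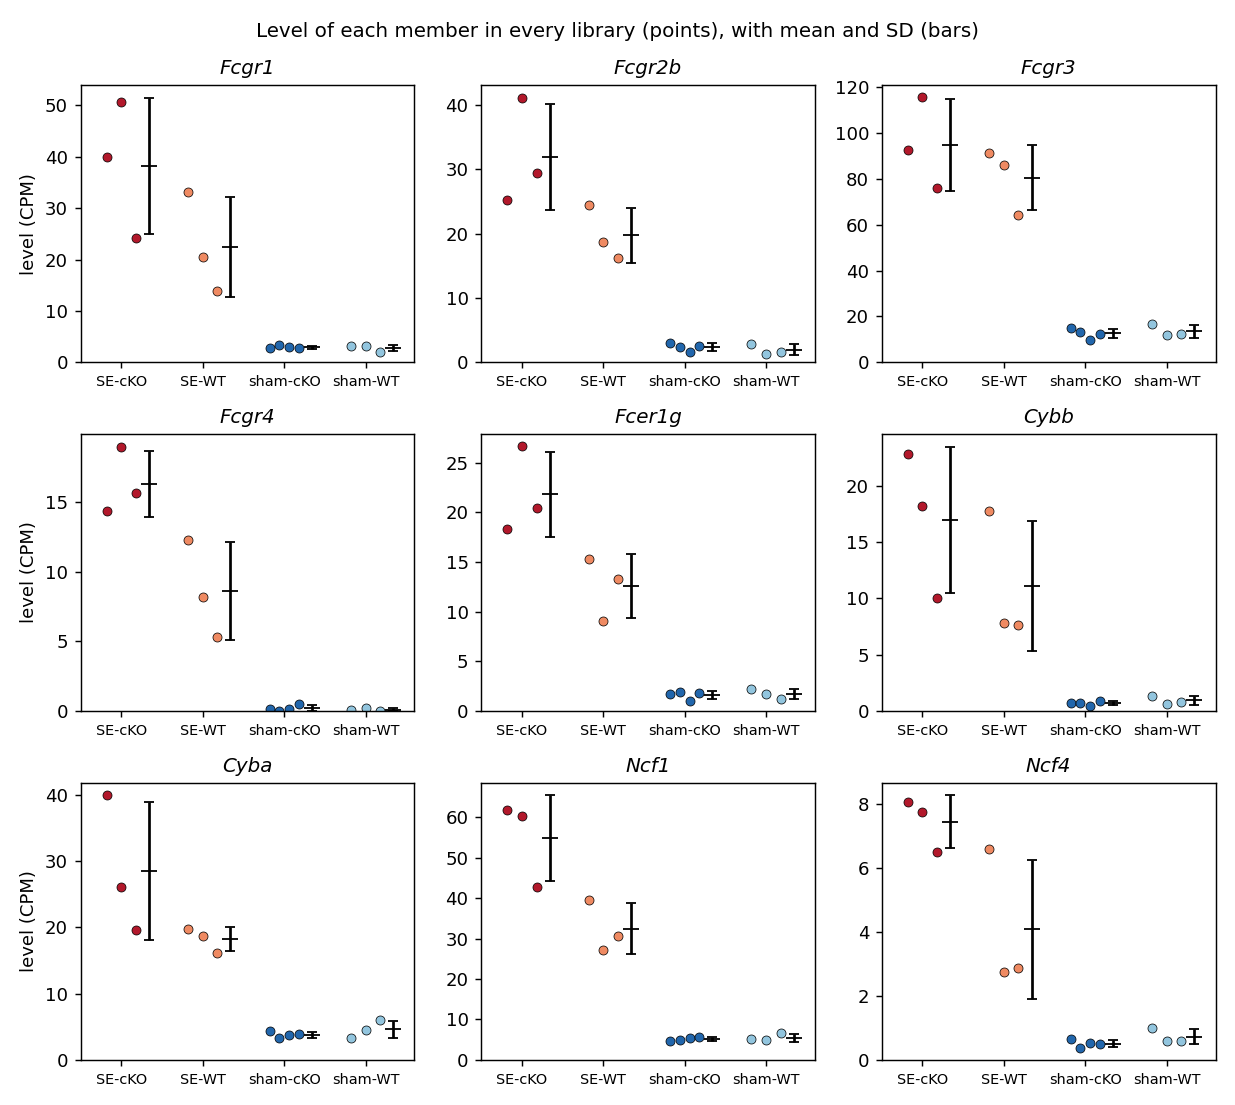
Level of each of the 9 genes in CPM (vertical axis, linear from 0) in every library (points) of the SE-cKO, SE-WT, sham-cKO and sham-WT groups (horizontal axis), with the mean and SD of each group (black bars). The SE libraries of each genotype lie above its sham libraries in all 9 panels, and SE-cKO and SE-WT overlap in 5 of the 9.

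Among the activating receptors, Fcgr4, which binds IgG2 subclasses in mice, showed the widest separation. It had 14.4, 18.9 and 15.6 CPM in SE-cKO, against 0.158, 0, 0.137 and 0.492 CPM in sham-cKO. It had 12.3, 8.17 and 5.31 CPM in SE-WT, against 0.0494, 0.207 and 0 CPM in sham-WT. The sham values are 0 to 30 read counts a library, so the gene was at or close to the limit of detection before SE. With the libraries at 0 set to a floor of 3 counts, which covers counting error only, SE-cKO averaged 78.4 times sham-cKO and SE-WT 83.9 times sham-WT. The fitted log2 fold change is given here and below with a standard error derived from the F statistic of edgeR. It was 6.36 ± 0.76 (adjusted p = 0.000635) in cKO and 6.56 ± 0.90 (adjusted p = 0.00853) in WT, and it depends on how libraries at 0 are treated.

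Fcgr1, the high-affinity receptor for monomeric IgG, had 39.9, 50.6 and 24.2 CPM in SE-cKO, against 2.67, 3.26, 2.93 and 2.75 CPM in sham-cKO. It had 33.1, 20.4 and 13.9 CPM in SE-WT, against 3.07, 3.12 and 2.06 CPM in sham-WT. The lowest SE library of either genotype was thus above 4 times any sham library. The log2 fold change was 3.69 ± 0.25 (adjusted p = 4.45e-05) in cKO and 3.00 ± 0.36 (adjusted p = 0.00514) in WT. Fcgr3, a low-affinity activating receptor and the most abundant of the 9, had 92.7, 115.8 and 76.0 CPM in SE-cKO, against 14.9, 13.1, 9.79 and 12.4 CPM in sham-cKO. It had 91.4, 86.2 and 64.4 CPM in SE-WT, against 16.7, 11.7 and 12.2 CPM in sham-WT. On the log2 scale Fcgr3 changed least among the receptors, at 2.89 ± 0.19 (adjusted p = 3.85e-05) in cKO and 2.55 ± 0.21 (adjusted p = 0.00167) in WT.

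The inhibitory receptor rose as well. Fcgr2b had 25.2, 41.1 and 29.4 CPM in SE-cKO, against 2.96, 2.33, 1.53 and 2.49 CPM in sham-cKO. It had 24.5, 18.7 and 16.1 CPM in SE-WT, against 2.90, 1.33 and 1.65 CPM in sham-WT. Its log2 fold change was 3.75 ± 0.26 (adjusted p = 5.42e-05) in cKO and 3.30 ± 0.34 (adjusted p = 0.0033) in WT, larger than that of Fcgr3 in both genotypes. Fcer1g, the shared signalling chain, had 18.4, 26.6 and 20.4 CPM in SE-cKO, against 1.68, 1.93, 0.996 and 1.85 CPM in sham-cKO. It had 15.3, 9.03 and 13.3 CPM in SE-WT, against 2.197, 1.70 and 1.16 CPM in sham-WT. All SE libraries stood well clear of the sham libraries, and the log2 fold change was 3.73 ± 0.26 (adjusted p = 5.42e-05) in cKO and 2.86 ± 0.32 (adjusted p = 0.00397) in WT.

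Both membrane subunits of the oxidase rose, Cybb more than Cyba. Cybb had 22.8, 18.2 and 10 CPM in SE-cKO, against 0.692, 0.715, 0.464 and 0.934 CPM in sham-cKO. It had 17.8, 7.82 and 7.64 CPM in SE-WT, against 1.37, 0.649 and 0.810 CPM in sham-WT. SE-WT replicate 1 and sham-WT replicate 1 stood above the others of their groups. The log2 fold change was 4.57 ± 0.35 (adjusted p = 7.79e-05) in cKO and 3.52 ± 0.47 (adjusted p = 0.00768) in WT, and the WT call was lost without sham-WT replicate 2 (adjusted p = 0.0589) or replicate 3 (adjusted p = 0.0514). Cyba had 40.0, 26.1 and 19.6 CPM in SE-cKO, against 4.36, 3.25, 3.77 and 3.88 CPM in sham-cKO. It had 19.8, 18.7 and 16.2 CPM in SE-WT, against 3.31, 4.57 and 5.94 CPM in sham-WT. Cyba had the smallest log2 fold change of the 9 in both genotypes, at 2.88 ± 0.25 (adjusted p = 0.000127) in cKO and 1.96 ± 0.24 (adjusted p = 0.00543) in WT, and its WT call was lost without sham-WT replicate 2 (adjusted p = 0.0534).

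The cytosolic subunits moved in the same direction. Ncf1 had 61.8, 60.3 and 42.7 CPM in SE-cKO, against 4.75, 4.91, 5.47 and 5.75 CPM in sham-cKO. It had 39.4, 27.1 and 30.7 CPM in SE-WT, against 5.04, 4.82 and 6.66 CPM in sham-WT. Ncf1 had the lowest adjusted p of the 9 in cKO, where the log2 fold change was 3.37 ± 0.17 (adjusted p = 1.35e-05), and it was 2.53 ± 0.21 (adjusted p = 0.00167) in WT. Ncf4, the least counted of the 9 after SE, had 8.08, 7.75 and 6.51 CPM in SE-cKO, against 0.644, 0.373, 0.519 and 0.492 CPM in sham-cKO. It had 6.59, 2.75 and 2.88 CPM in SE-WT, against 0.988, 0.580 and 0.590 CPM in sham-WT. SE-WT replicate 1 had more Ncf4 than the other 2 of its group, and the log2 fold change was 3.84 ± 0.26 (adjusted p = 4.62e-05) in cKO and 2.47 ± 0.46 (adjusted p = 0.0278) in WT. The WT call for Ncf4 was lost without SE-WT replicate 1 (adjusted p = 0.0537) or without sham-WT replicate 1, 2 or 3 (adjusted p = 0.0624, 0.147 and 0.115).

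**Figure D2:**
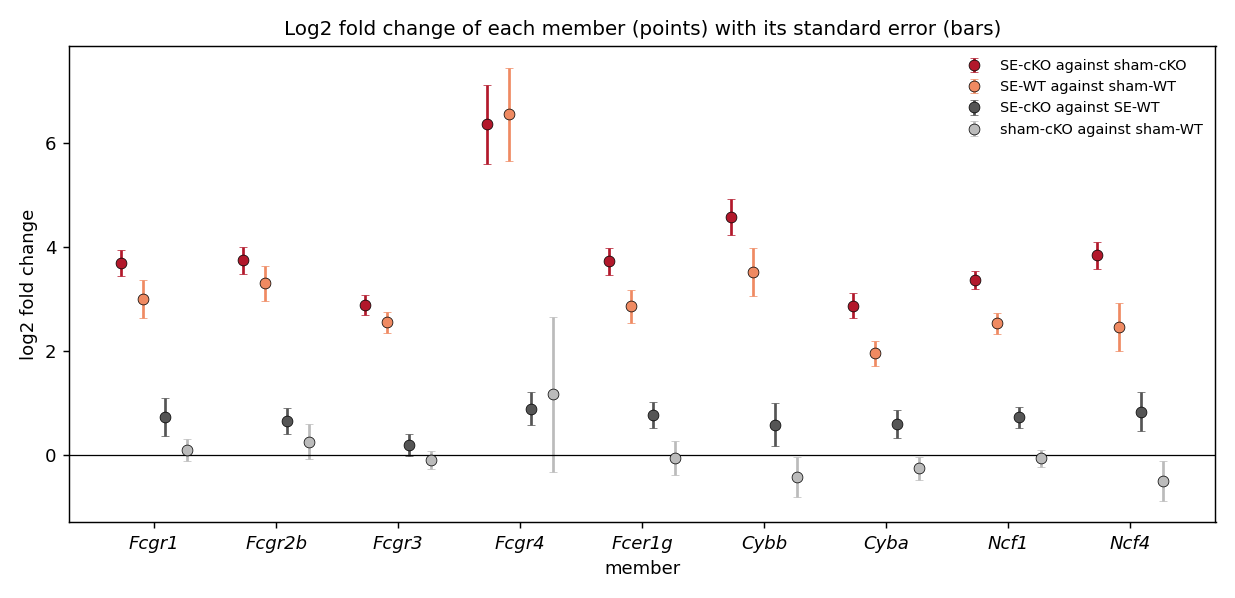
Log2 fold change (vertical axis) of each gene (horizontal axis) in SE-cKO against sham-cKO, SE-WT against sham-WT, SE-cKO against SE-WT and sham-cKO against sham-WT (colours), with standard errors derived from the F statistic of edgeR (bars). The 2 comparisons of SE with sham lie between 1.96 and 6.56, and the 2 comparisons of genotypes lie between -0.49 and 1.17.

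Per length of transcript, the genes kept a similar order in the SE groups. By TPM (a level corrected for transcript length and library size), both SE groups ran Fcgr3, Cyba, Fcer1g, Fcgr2b, Ncf1, Fcgr1, Fcgr4, Ncf4 and Cybb. Fcgr3 averaged 90.4 ± 12.7 TPM in SE-cKO and 78.2 ± 8.37 TPM in SE-WT (SD, n = 3 each), and its libraries did not overlap those of Cyba at 48.5 ± 14.8 TPM in SE-cKO and 31.6 ± 2.82 TPM in SE-WT. From Cyba down to Fcgr4, each neighbour in this order overlapped the next in both SE groups. Cybb, at 4.58 ± 1.42 TPM in SE-cKO and 3.06 ± 1.56 TPM in SE-WT (SD, n = 3 each), was last, and its libraries overlapped those of Ncf4 in SE-WT but not in SE-cKO. In both sham groups Ncf1 stood before Fcgr2b, Fcgr3 was first without overlapping Cyba, and Cybb and Fcgr4 were the last 2. The 9 genes together came to 261 to 313 TPM in SE-cKO, 165 to 233 TPM in SE-WT, 25.4 to 36.1 TPM in sham-cKO and 28.9 to 29.8 TPM in sham-WT. FPKM gave the same order in each group.

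The make-up of the receptors differed after SE. Fcgr3 made up 58.1% ± 2.15 of the TPM of the 4 receptors in SE-cKO (SD, n = 3), against 75.7% ± 1.59 in sham-cKO (SD, n = 4), and 67.5% ± 3.87 in SE-WT against 80.0% ± 1.82 in sham-WT (SD, n = 3 each). Fcgr4 made up 10.1 to 12.8% in SE-cKO, against 0 to 3.12% in sham-cKO, and 6.17 to 9.11% in SE-WT, against 0 to 1.44% in sham-WT. No SE library overlapped a sham library of its genotype in either share. The inhibitory Fcgr2b made up 15.8 to 21.2% in SE-cKO, against 12 to 14.7% in sham-cKO, and 14.4 to 16.5% in SE-WT, against 8.61 to 13.2% in sham-WT. These shares sum to 100% in each library, so they are not independent of each other, and they were not tested.

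**Figure D3:**
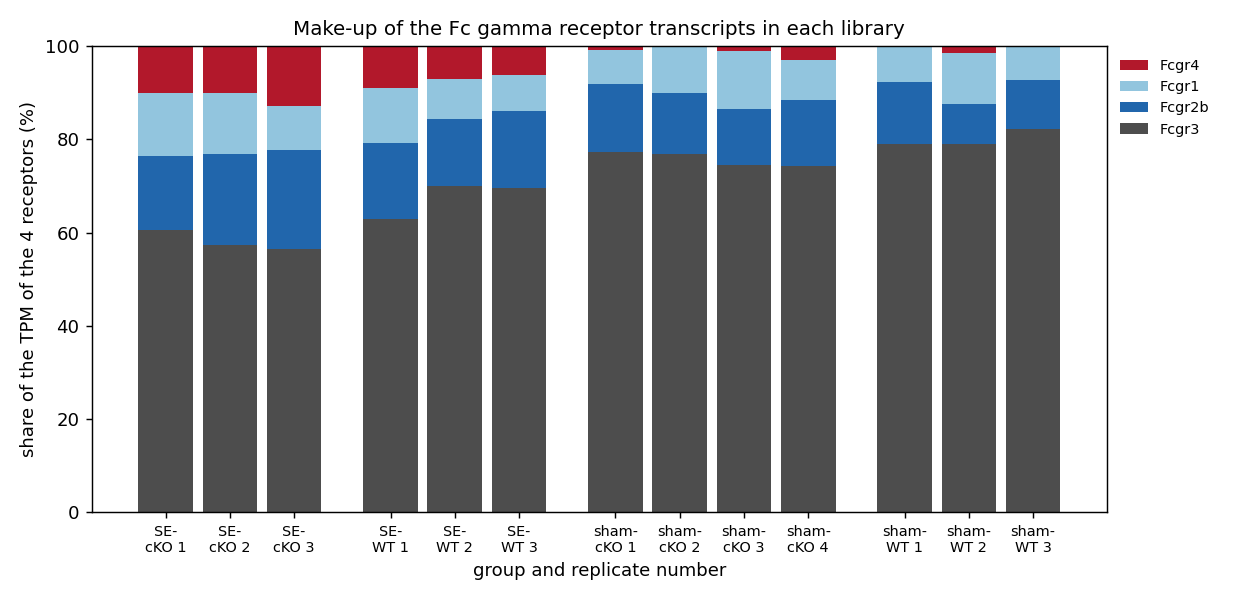
Share of the summed TPM of Fcgr1, Fcgr2b, Fcgr3 and Fcgr4 (vertical axis, percent) taken by each receptor (colours) in each library (bars, labelled by group and replicate number). Fcgr3 takes 56.4 to 69.9% in the SE libraries and 74.2 to 82.1% in the sham libraries, and Fcgr4 takes 6.17 to 12.8% in the SE libraries and 0 to 3.12% in the sham libraries.

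Ratios of read counts within a library, which do not depend on how libraries are scaled, were used to ask whether the genes changed by unequal amounts. There were 7 ratios, each tested for SE against sham over the 13 libraries by an exact two-sided permutation test with treatment permuted within genotype. The ratio of activating Fcgr3 to inhibitory Fcgr2b was 2.58 to 3.68 in SE-cKO, against 4.98 to 6.40 in sham-cKO, and 3.74 to 4.62 in SE-WT, against 5.74 to 8.83 in sham-WT. It was lower after SE, by -0.84 on the log2 scale (exact p = 0.00143, adjusted p = 0.005), and this p is the smallest that the 700 assignments can give. The opposite held for Fcgr4 over Fcgr2b, at 0.461 to 0.570 in SE-cKO against 0 to 0.197 in sham-cKO, and 0.330 to 0.503 in SE-WT against 0 to 0.156 in sham-WT. It was higher after SE by 2.71 (exact p = 0.005, adjusted p = 0.00875), with the 2 sham libraries at 0 left out of the test, which leaves 200 assignments. Fcgr1 over Fcgr2b overlapped throughout, with a log2 difference of -0.28 (exact p = 0.314, adjusted p = 0.314).

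Fcer1g over Fcgr3, the signalling chain over its most abundant receptor, was 0.198 to 0.269 in SE-cKO, against 0.102 to 0.149 in sham-cKO. It was 0.105 to 0.206 in SE-WT, against 0.0957 to 0.145 in sham-WT, where the groups overlapped. The log2 difference of SE against sham was 0.60 (exact p = 0.0171, adjusted p = 0.02), and the p rose past 0.05 without SE-cKO replicate 3 and SE-WT replicate 3 together (exact p = 0.0867) or without sham-WT replicate 3 (exact p = 0.0543). Cybb over Cyba, the catalytic subunit over its partner, was 0.511 to 0.698 in SE-cKO against 0.123 to 0.241 in sham-cKO, and 0.418 to 0.897 in SE-WT against 0.136 to 0.414 in sham-WT. It was higher after SE by 1.60 (exact p = 0.00143, adjusted p = 0.005), with sham-WT replicate 1 close below the lowest SE-WT library. Both cytosolic subunits were lower relative to Cybb, Ncf1 by -1.07 (exact p = 0.00286, adjusted p = 0.00667) and Ncf4 by -0.87 (exact p = 0.01, adjusted p = 0.014). Ncf1 over Cybb was 2.71 to 4.27 in SE-cKO against 6.16 to 11.8 in sham-cKO, and 2.22 to 4.02 in SE-WT against 3.68 to 8.23 in sham-WT. Ncf4 over Cybb was 0.355 to 0.65 in SE-cKO against 0.522 to 1.12 in sham-cKO, where the groups overlapped. It was 0.352 to 0.377 in SE-WT against 0.721 to 0.894 in sham-WT. Ratios that share a gene, such as those with Cybb, are not independent of each other.

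**Figure D4:**
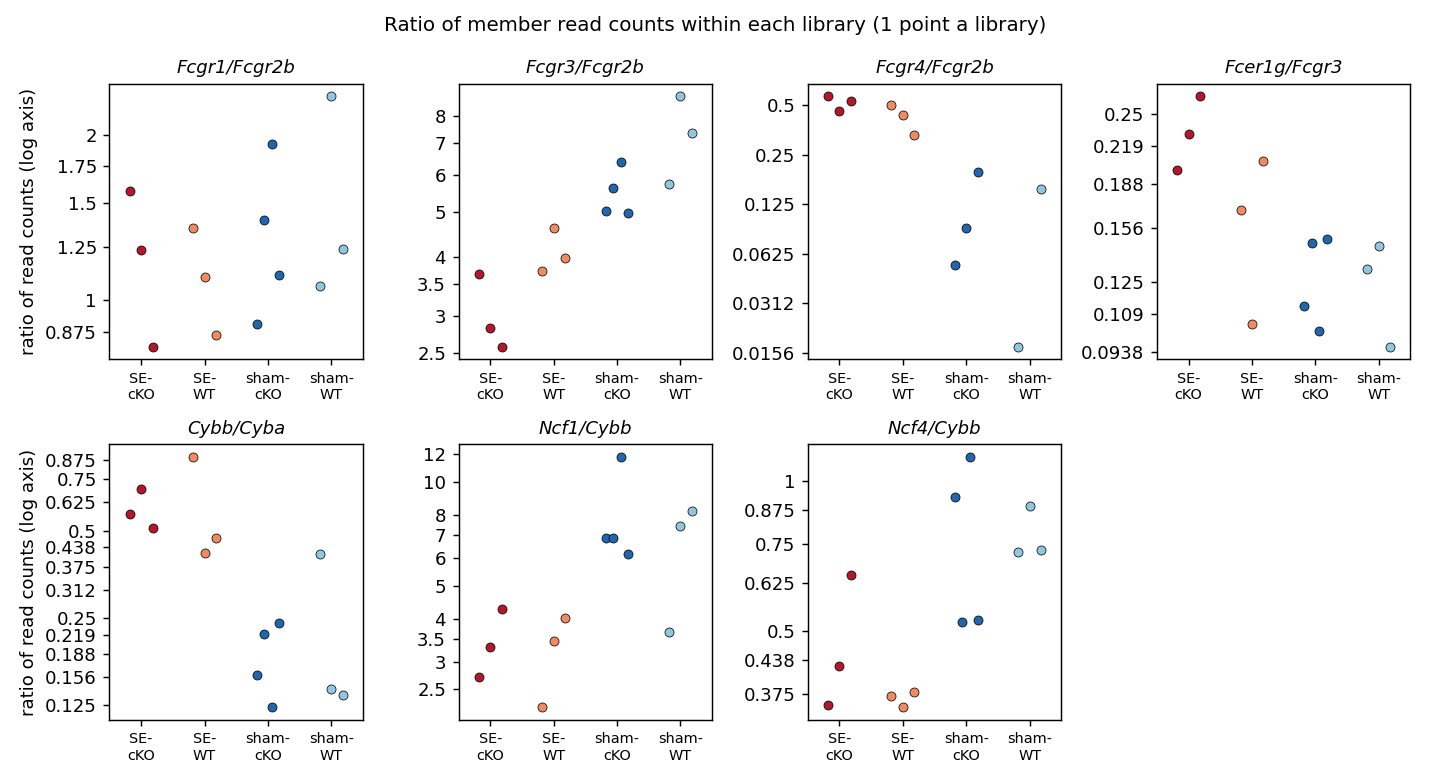
Ratio of the read counts of 2 genes within each library (vertical axes, log scale, 1 point a library) by group (horizontal axes) for the 7 ratios. Sham-cKO replicate 2 and sham-WT replicate 3, with 0 counts of Fcgr4, are not drawn in the panel of Fcgr4 over Fcgr2b, where the other sham libraries lie at or below 0.197 and the SE libraries at or above 0.330.

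Between genotypes after SE, none of the 9 genes was called. All 9 had a positive log2 fold change in SE-cKO against SE-WT, with a median of 0.72, from 0.20 for Fcgr3 to 0.89 for Fcgr4, beside a median of 0.0008 over all genes. The adjusted p values of edgeR ran between 0.359 and 0.853, and 4 of the 9 (Fcgr2b, Fcgr4, Fcer1g and Ncf1) had an unadjusted p under 0.05. In the same comparison 0 of the 21126 genes tested were called in either direction (0%), with 2046 at an unadjusted p under 0.05, beside 535 called by DESeq2 and 0 by limma voom, and neither of these tools called any of the 9. The same 4 genes had every SE-cKO library above every SE-WT library, which 9.30% of all tested genes did. Ncf1 was fitted at 1.65-fold in SE-cKO over SE-WT, with 1.43 to 1.91 within 1 standard error (adjusted p = 0.359). Fcgr3 was fitted at 1.15-fold, with 0.99 to 1.33 within 1 standard error (adjusted p = 0.853). These p values do not show that the genotypes were alike, and each group held 3 mice.

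Without 3 libraries with many striatal or thalamic transcripts (SE-WT replicates 2 and 3 and sham-cKO replicate 2), the log2 fold change of Cybb in SE-cKO against SE-WT was -0.10 (adjusted p = 0.992), against 0.58 with all libraries. Those of the other 8 were positive and smaller than with all libraries, at 0.02 against 0.20 for Fcgr3, 0.14 against 0.84 for Ncf4, 0.17 against 0.73 for Fcgr1, 0.35 against 0.66 for Fcgr2b, 0.37 against 0.89 for Fcgr4, 0.44 against 0.72 for Ncf1, 0.47 against 0.76 for Fcer1g and 0.49 against 0.61 for Cyba, and none was called. SE-WT then rests on replicate 1, whose spread is assumed to be that of the other groups, and which was the highest of its group for all 9 genes. None of the 7 ratios was told apart between SE-cKO and SE-WT, where 3 against 3 libraries cannot reach a p below 0.1. The lowest exact p was 0.1, for Fcgr3 over Fcgr2b with a log2 difference of -0.45 (adjusted p = 0.467).

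In sham-cKO against sham-WT, 0 of the 9 genes were called, with adjusted p values of 0.896 or higher, 0 at an unadjusted p under 0.05 and none without overlap. Over all 20785 genes tested 0 were called (0%), with 1152 at an unadjusted p under 0.05, 17 called by DESeq2 and 0 by limma voom. The median log2 fold change of the 9 genes was -0.06, and 3 of the 9 (Fcgr1, Fcgr2b and Fcgr4) were positive. The interaction, which is the change after SE in cKO mice minus the change in WT mice, was positive for 8 of the 9 genes, with a median of 0.84, and none was called (lowest adjusted p = 0.202, for Ncf1), against 0.159% of 22596 genes called in either direction. An unadjusted p under 0.05 was found for 2834 of the 22596 genes and for 3 of the 9, Cyba at 0.92 (adjusted p = 0.307), Ncf1 at 0.84 (adjusted p = 0.202) and Ncf4 at 1.37 (adjusted p = 0.27). These comparisons share libraries, so the signs of the interaction and of SE-cKO against SE-WT are not independent.

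Partners of the 2 complexes were given from lists written with results of these data known. Counts in these lists and in the cell type markers below stand beside 13.8% of all tested genes called higher in cKO and 4.57% in WT. Of 9 partners of the oxidase, 3 rose in both genotypes, namely Rac2, Hvcn1 and Arhgdib, and Pak1 fell in cKO. Rac2, the small GTPase of the oxidase in blood cells, averaged 15.5 ± 2.57 CPM in SE-cKO (SD, n = 3) against 0.897 ± 0.0659 CPM in sham-cKO (SD, n = 4), and 7.96 ± 1.95 CPM in SE-WT against 0.839 ± 0.257 CPM in sham-WT (SD, n = 3 each). Prkcd, a kinase that phosphorylates oxidase subunits and also a thalamic marker here, was called in neither genotype (adjusted p = 0.291 in cKO and 0.287 in WT). The voltage-gated proton channel Hvcn1, which carries charge out of cells while the oxidase runs, averaged 13.9 CPM in SE-cKO against 1.64 CPM in sham-cKO, and 10.03 CPM in SE-WT against 1.87 CPM in sham-WT. Of 9 genes for other NADPH oxidases and their regulators, only Nox4 and Noxo1 passed the count filter in the comparisons of 2 groups. Nox4, a constitutively active oxidase, rose in cKO (2.87 CPM in SE-cKO against 0.283 CPM in sham-cKO) and was not called in WT (1.24 CPM in SE-WT against 0.145 CPM in sham-WT).

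Of 13 other Fc receptor genes, 5 passed the filter. Fcrls, a microglial Fc receptor-like gene, rose in both genotypes, to 268.4 CPM in SE-cKO against 21.3 CPM in sham-cKO, and to 145.4 CPM in SE-WT against 23.5 CPM in sham-WT. Trim21, a cytosolic antibody receptor, rose in cKO and was not called in WT. Fcgrt, the neonatal Fc receptor that recycles IgG, was called in neither, with 27.0 CPM in SE-cKO against 16.7 CPM in sham-cKO and 22.6 CPM in SE-WT against 20.5 CPM in sham-WT. Fcrl1 was also called in neither.

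Downstream of the activating receptors, 15 of 16 ITAM signalling genes rose in each genotype and none fell, the exception being Pik3cd. Tyrobp, an ITAM adaptor beside Fcer1g, averaged 84.9 CPM in SE-cKO against 10.2 CPM in sham-cKO, and 68.4 CPM in SE-WT against 10.9 CPM in sham-WT. Lyn, a kinase that phosphorylates both ITAMs and ITIMs, averaged 66.9 CPM in SE-cKO against 10.4 CPM in sham-cKO, and 40.6 CPM in SE-WT against 8.85 CPM in sham-WT. Vav1, an exchange factor for Rac proteins, and Pik3cg, a lipid kinase, also rose in both. The list for ITIM signalling was not limited to genes that carry an ITIM, and it shares Siglech with the microglial markers. Of its 14 genes, which include the inhibitory arm, 11 rose in cKO and 9 in WT. They included Ptpn6, the phosphatase SHP-1, with 32.0 CPM in SE-cKO against 2.88 CPM in sham-cKO and 17.9 CPM in SE-WT against 3.85 CPM in sham-WT. Inpp5d, the lipid phosphatase through which Fcgr2b acts, had 74.1 CPM in SE-cKO against 12.95 CPM in sham-cKO and 46.1 CPM in SE-WT against 13.1 CPM in sham-WT. Laptm5 and Cd33 also rose in both genotypes.

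Of 14 genes of oxidant defence, 6 rose and 1 (Sod2) fell in cKO, and 3 rose in WT. Gpx1, a peroxidase that removes hydrogen peroxide, averaged 146.2 CPM in SE-cKO against 41.1 CPM in sham-cKO, and 112.2 CPM in SE-WT against 44.7 CPM in sham-WT. Hmox1, which breaks down heme, averaged 19.8 CPM in SE-cKO against 2.62 CPM in sham-cKO, and 9.51 CPM in SE-WT against 2.73 CPM in sham-WT. Gpx3, a secreted peroxidase, rose in both as well, and Prdx1 rose in cKO. The median log2 fold change of the list was 0.42 in cKO and 0.33 in WT, beside 2.95 and 2.06 for ITAM signalling. In SE-cKO against SE-WT, sham-cKO against sham-WT and the interaction, edgeR called 0 genes of any of these 6 lists. Of the cell type markers below, the interaction called Itgam (microglia) and Gfap (astrocytes) higher.

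Markers of microglia rose beside the 9 genes, and those of other cell types moved less evenly. All 12 microglial markers rose in both genotypes, with a median log2 fold change of 2.19 in cKO and 1.79 in WT, and a summed level of 1624 to 2494 CPM in SE-cKO against 395 to 426 CPM in sham-cKO and 1389 to 1812 CPM in SE-WT against 416 to 443 CPM in sham-WT. Relative to the mean of the sham libraries, the median of the 9 genes exceeded that of the microglial markers by 1.14 to 1.74 on the log2 scale in SE-cKO libraries and by 0.82 to 1.45 in SE-WT libraries, against -0.05 to 0.14 in sham-cKO and -0.06 to 0.31 in sham-WT. This gap depends on the markers listed, which rose unevenly. P2ry12 averaged 66.99 CPM in SE-cKO against 39.25 CPM in sham-cKO, and 74.13 CPM in SE-WT against 39.2 CPM in sham-WT. C1qb averaged 255.5 CPM in SE-cKO against 21.18 CPM in sham-cKO, and 170.6 CPM in SE-WT against 22.29 CPM in sham-WT. The summed level of 10 monocyte markers was 40.5 to 129 CPM in SE-cKO against 2.74 to 4.56 CPM in sham-cKO, with 9 of 10 called higher. It was 11.8 to 52.8 CPM in SE-WT against 2.13 to 4.80 CPM in sham-WT, with 1 of 8 tested called higher. SE-WT replicate 1, the highest of its group for all 9 genes, had the 52.8 CPM of monocyte markers, and the other 2 had 11.8 and 12.4 CPM. In SE-cKO, replicate 2 had 129 CPM of them and was the highest for all 5 genes of the Fc receptors, but not for the 4 subunits of the oxidase, which were highest in replicate 1 (73.4 CPM).

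The summed level of 12 neutrophil markers was 22.6 to 41.4 CPM in SE-cKO against 3.56 to 7.33 CPM in sham-cKO, and 14.9 to 20.4 CPM in SE-WT against 2.66 to 6.17 CPM in sham-WT. Csf3r, which encodes the receptor of granulocyte colony-stimulating factor, made up most of the mean sum in every group, at 22.6 CPM in SE-cKO against 2.94 CPM in sham-cKO and 16.6 CPM in SE-WT against 2.58 CPM in sham-WT. The other 11 markers summed to 2.59 to 14.6 CPM in SE-cKO against 0.326 to 4.21 CPM in sham-cKO, and to 0.427 to 2.06 CPM in SE-WT against 0.359 to 3.19 CPM in sham-WT, so that in WT the groups overlapped. In cKO 3 of 9 tested neutrophil markers were called higher (S100a8, Cxcr2 and Csf3r), and in WT 1 of 4 (Csf3r). Elane was at 0 in every library, and Ly6g and Retnlg were at 0 in SE-WT and sham-WT. Border macrophage markers summed to 23.2 to 55.6 CPM in SE-cKO against 22.6 to 34.1 CPM in sham-cKO, and 23.0 to 43.0 CPM in SE-WT against 19.1 to 29.8 CPM in sham-WT, with 2 of 8 called higher in cKO and 0 in WT. The 9 T cell markers summed to 2.71 to 3.86 CPM in SE-cKO against 1.66 to 2.04 CPM in sham-cKO, and to 2.39 to 7.92 CPM in SE-WT against 1.56 to 2.01 CPM in sham-WT, with 0 of 4 tested called in either genotype. Among them Cd28, a costimulatory receptor, averaged 0.600 CPM in SE-cKO against 0.0660 CPM in sham-cKO and 0.872 CPM in SE-WT against 0.0496 CPM in sham-WT, and Cd3e, a defining gene of T cells, was at 0 in every library. Trac averaged 0.226 CPM in SE-cKO against 0.472 CPM in sham-cKO, and 0.51 CPM in SE-WT against 0.425 CPM in sham-WT. Lck averaged 1.76 CPM in SE-cKO against 1.13 CPM in sham-cKO, and 1.21 CPM in both WT groups. The 7.92 CPM was in SE-WT replicate 2, also high in striatal markers, where Cd4 had 5.095 CPM. Markers of hippocampal neurons were lower in sum after SE. The sums were 329 to 373 CPM in SE-cKO against 635 to 779 CPM in sham-cKO. They were 236 to 534 CPM in SE-WT against 584 to 764 CPM in sham-WT. The 236 CPM was in SE-WT replicate 2, the library high in striatal markers. In cKO 7 of 12 were called lower, beside 1901 of all 21307 genes tested, and in WT 3 of 12, beside 173 of 20803. Not every marker fell. Prox1 averaged 85.02 CPM in SE-cKO against 78.69 CPM in sham-cKO. Neurod2 and Grp also averaged higher in SE-cKO than in sham-cKO. Wfs1 averaged 73.02 CPM in SE-WT against 43.07 CPM in sham-WT. Of 8 astrocyte markers 3 were called higher in both genotypes (Gfap, Aqp4 and Aldh1l1) and Slc1a2 was called lower in cKO, with Gfap at 4688 CPM in SE-cKO against 276 CPM in sham-cKO and 2696 CPM in SE-WT against 327 CPM in sham-WT. The part of any of these cells in the changes of the 9 genes was not tested.

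**Figure D5:**
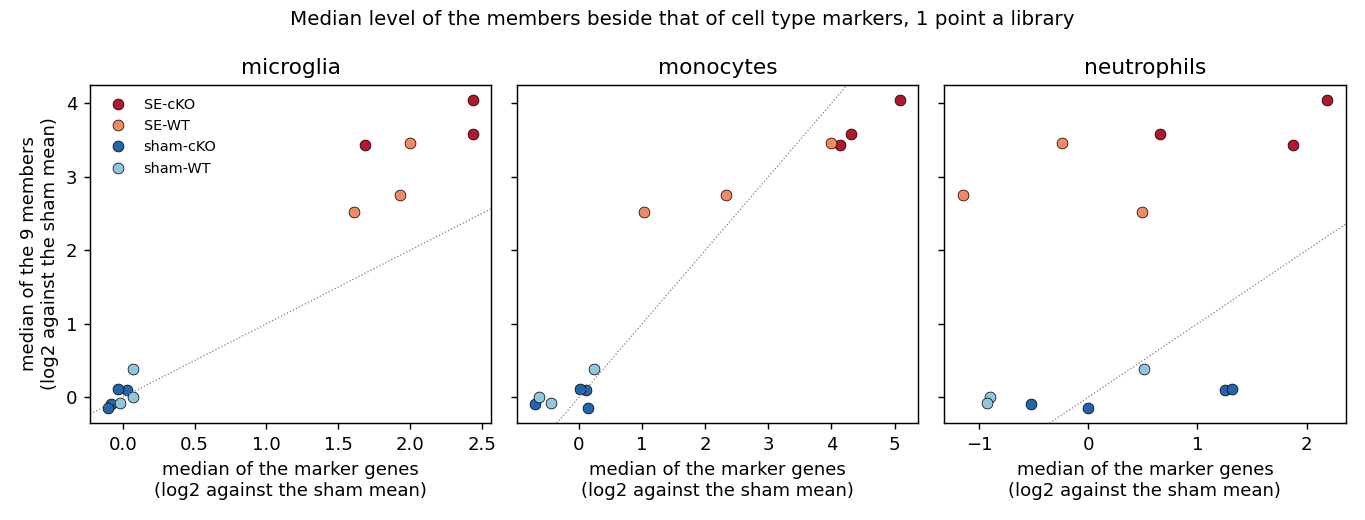
Median of the 9 genes (vertical axis) against the median of the markers of microglia, monocytes and neutrophils (horizontal axes, a panel each), both as log2 differences from the mean of the sham libraries, with 1 point a library and a dotted line where both are equal. The SE libraries lie 0.82 to 1.74 above the line for microglia, and SE-WT replicate 1 lies with the SE-cKO libraries for monocytes.

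Libraries differed in other ways that the groups do not explain. Totals ran between 59659977 and 84354243 counts. Lin28a itself had 3 counts in SE-WT replicate 3 and 0 in every other library, so it does not check the genotype labels. SE-WT replicate 3 and SE-cKO replicate 3 had sample titles in another form than the rest and the highest shares of mitochondrial rRNA (4.83% and 3.92%, against 0.486 to 1.66% in the others), and each was the lowest of its group for 6 of the 9 genes. Without both, edgeR still called 9 of 9 genes higher in each comparison of SE with sham. Striatal markers reached 1277 CPM in SE-WT replicate 2 and thalamic markers 1725 CPM in sham-cKO replicate 2 and 1022 CPM in SE-WT replicate 3, and 9 of 9 genes were also called in both without these 3. Xist, which marks female libraries, was high in SE-cKO replicates 2 and 3, SE-WT replicate 2, sham-cKO replicate 3 and sham-WT replicates 2 and 3. Cybb is on the X chromosome, and those libraries had the lowest Cybb of their groups in SE-cKO (18.2 and 10 CPM), sham-cKO (0.464 CPM) and sham-WT (0.649 and 0.810 CPM), whereas SE-WT replicate 2 (7.82 CPM) lay between the other 2. Genes on other chromosomes did likewise in part. SE-cKO replicate 1, low in Xist, was also highest for Cyba, Ncf1 and Ncf4, but lowest for Fcgr2b, Fcgr4 and Fcer1g. Sham-WT replicate 1, low in Xist, was also highest for Fcgr2b, Fcgr3, Fcer1g and Ncf4, but lowest for Cyba. Sham-cKO replicate 3 was also lowest for Fcgr2b, Fcgr3 and Fcer1g. A part of sex in these levels was not tested. With the level of Xist as a covariate 9 of 9 genes were called in both comparisons of SE with sham.

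Over the 13 libraries, the genes whose profiles were most like those of 3 of the 9 were sought among 13950 genes by the root mean square difference of log2 CPM, each relative to its mean over the sham libraries. For Cybb they were Ms4a6c (0.388), Irf7 (0.419) and S100a6 (0.447), against a median of 2.80 over the genes compared. For Fcer1g they were C1qb (0.298), Rac2 (0.301) and Mpeg1 (0.342), against a median of 2.32. For Fcgr2b they were Rac2 (0.259), Mpeg1 (0.327) and Cdca2 (0.33), against a median of 2.47. Ms4a6c is in the list of monocyte markers, C1qb in that of microglial markers, and Irf7 encodes an interferon regulatory factor. The points share libraries and depth, and the values are descriptive.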

How the data were processed

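Hippocampal RNA of 13 mice had been made into TruSeq stranded total-RNA libraries. Per the labels and their processing notes, the authors used bcl2fastq 2.20.0, Trimmomatic, HISAT2 2.1.0, StringTie 2.1.3b and mm10; filters and the strand setting are not given in the sources used here. The deposited table gives read counts (whole numbers, not normalized) per gene. It also holds deposited TPM and FPKM values, which are scaled by the authors for transcript length and library size.

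Genes with few reads were removed with filterByExpr (minimum count 10, minimum total 15), and TMM factors scaled the libraries. The minimum count, taken as a CPM at the median depth, had to be reached in at least as many libraries as the smallest group held. The main test was quasi-likelihood in edgeR 4.0.16 (R 4.3.3, robust), run per comparison on its 2 groups, and for the interaction on all 13 libraries, with Benjamini-Hochberg adjustment over all genes tested (threshold 0.05). Log2 CPM used a prior count of 2. The test returns no standard error, so each was computed as the absolute log2 fold change divided by the square root of the F statistic. TPM set levels between genes. The p values of edgeR set a difference between groups against the spread between the libraries of different mice, which includes counting error. Alternatives were DESeq2 1.42.0, limma 3.58.1 voom with quality weights, RLE factors, Xist as a covariate, no filter on counts, a replicate block, 1 fit of all 4 groups, and libraries left out.

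The members, lists and tests were chosen with earlier results of these data known. Beside the members, text names up to 4 genes of each pathway list with the smallest p in SE-WT against sham-WT and the 3 genes most like Cybb, Fcer1g and Fcgr2b. Genes named to complete a count (Pak1, Sod2, Pik3cd), genes that overlap a member and single cell type markers were chosen after their values were seen. Promoters of 8 of the 9 genes were matched in the RefSeq table. 1 gene of the list of oxidase partners is not reported here and was left out of its counts.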

Additional observations from a re-analysis of the deposited data

Results flagged for a closer look

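The ratio of Ncf1 to Cybb read counts stood apart in 1 library. In sham-cKO it was 11.8 in replicate 3, against 6.86, 6.87 and 6.16 in replicates 1, 2 and 4. With 1 count added to each gene, the gap between replicate 3 and its nearest neighbour was 0.831 of the range of the group on the log2 scale, just past the 95% limit of Dixon's test for 4 samples. The check was made only in sham-cKO, the only group of 4. Chance alone marks about 1 in 20 such groups at each single check, and more often over several ratios. Replicate 3 had the lowest Cybb of its group, at 34 read counts.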

How the results depend on the processing

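The count of members called changed in none of the alternatives by more than 1.5 times. It stayed at 9 of 9 in SE-cKO against sham-cKO in all 16 alternatives and at 0 in SE-cKO against SE-WT, sham-cKO against sham-WT and the interaction. In SE-WT against sham-WT it was 9 in every alternative that kept all sham-WT libraries, SE-WT replicate 1 and more than 1 SE-WT library. It was 6 to 9 when each library was left out in turn. The replicate numbers did not pair the mice (correlations of deviations -0.074 to 0.249); with a replicate block 9 and 9 members were called after SE, 728 genes were called in SE-WT against sham-WT (1124 without) and 2458 in SE-cKO against sham-cKO (4838 without), and the interaction of Fcgr4 was 0.70. That interaction, -0.19 in all libraries, ran from -1.84 to 0.72 with each library left out and was also positive without SE-WT replicate 1 (0.16), sham-WT replicate 1 (0.08), sham-WT replicate 3 (0.29) or sham-cKO replicate 4 (0.72). In the comparison of sham groups, leaving out each library moved Fcgr1 between -0.0915 and 0.189, Fcgr3 between -0.19 and 0.0844, Fcer1g between -0.273 and 0.181 and Ncf1 between -0.153 and 0.084, so their signs are not settled (Fcgr3 was also at 0.009 and Fcer1g at 0.12 without sham-cKO replicate 3). Cybb in SE-cKO against SE-WT was -0.10 (-0.105 before rounding) without the 3 libraries with many striatal or thalamic transcripts. Of the ratios in SE-cKO against SE-WT, with each library left out in turn, Fcgr1 over Fcgr2b ran from -0.11 to 0.36, with -0.06 without SE-WT replicate 3, Cybb over Cyba from -0.15 to 0.40, also at -0.06, and Ncf1 over Cybb from -0.15 to 0.28, also at -0.07. Fcer1g over Fcgr3 after SE was 0.44 without SE-cKO replicate 3 and SE-WT replicate 3 (exact p = 0.0867) and 0.51 without sham-WT replicate 3 (exact p = 0.0543), with a range of 0.49 to 0.74 over single libraries left out. Over all genes, calls in SE-WT against sham-WT ran from 287 to 2692, in SE-cKO against SE-WT from 0 to 535 and in the interaction from 0 to 720. The cause of these shifts was not tested. Each group held 3 or 4 mice, and counting error was not separated from the spread between mice. Depth was lowest for Fcgr4 (0 to 30 counts in sham libraries), and Ncf4 and Cybb were also low there (from 24 and 34 counts).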
